A study of Rattus norvegicus with 9 samples.

Results

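The RANKL and OPG axis and the growth signals of osteoclasts were examined through 7 named genes, which were picked by symbol from the 23026 genes of the deposited tables: Tnfsf11 (RANKL), Tnfrsf11b (OPG), Tnfrsf11a (RANK), Csf1 (M-CSF), Il34, Traf6 and Lgr4. All 7 were found, and all 7 passed the filter on low counts. Messenger RNA from rat bone had been sequenced in 9 libraries, with 3 in each of 3 groups. Sham rats lost fat beside the ovary and kept the ovaries, OVX rats were ovariectomised, and OVX-AS-IV-High rats were ovariectomised and received astragaloside IV (AS-IV, a saponin of the herb Astragalus) at 80 mg/kg. The rats were 8 weeks old when bought, and the ovariectomised rats were assigned to OVX or AS-IV 6 weeks after surgery. All were dosed by gavage for 8 weeks. The labels give 1% CMC-Na (sodium carboxymethyl cellulose, the vehicle) for each OVX library and 1%, 2% and 3% for Sham libraries 1, 2 and 3, and they name no vehicle for OVX-AS-IV-High. The study's methods give 1% CMC-Na for all of these rats, also as the solvent of AS-IV. Sham was treated as 1 group. Ovariectomy models the loss of ovarian hormones in otherwise young animals, and the 3 groups do not include sham-operated rats given AS-IV.

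RANKL is a membrane-bound or shed ligand made by osteocytes, osteoblasts, marrow stromal cells and lymphocytes. It binds RANK on osteoclast precursors, and RANK recruits the adaptor TRAF6, which passes the signal on to NF-κB, MAP kinases and the transcription factor NFATc1. OPG is a secreted decoy receptor that binds RANKL and keeps it from RANK, so the balance of RANKL and OPG is a common readout in oestrogen deficiency. M-CSF and IL-34 are separate ligands of the receptor CSF1R, which keeps osteoclast precursors alive, and LGR4 is an R-spondin receptor that can also bind RANKL and compete with RANK for it.

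Of the 7 genes, the RefSeq promoter table of build GRCr8 held windows for Tnfsf11 and Lgr4. The window of Tnfsf11 is shown because this gene encodes RANKL, the ligand of the pair. It spans chr15:60114430-60114729 on the minus strand and is written 5′ to 3′, from 250 bases before the start of the gene to 50 bases after it, with the only motif match in capitals.

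Tnfsf11: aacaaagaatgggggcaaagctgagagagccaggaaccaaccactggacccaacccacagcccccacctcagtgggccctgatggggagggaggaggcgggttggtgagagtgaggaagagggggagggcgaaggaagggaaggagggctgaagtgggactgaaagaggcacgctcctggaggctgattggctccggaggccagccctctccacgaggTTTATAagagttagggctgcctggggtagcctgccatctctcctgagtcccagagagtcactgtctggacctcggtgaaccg

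The capitals mark TTTATA, which is the TATA box TATAAA read on the opposite strand, and they begin 32 bases before the start. TATAAA was present on either strand in 14.2% of the 33469 promoter windows of the table. The letters GGGCGG (GC box), TGTGGT (RUNX site), AGGTCA (nuclear receptor element), TGANTCA (AP-1 site) and TTCNNNGAA (STAT site) were searched on both strands and did not occur in this window, against 33.1%, 17.3%, 16.2%, 7.33% and 8.87% of all windows. Such a match describes letters in the reference and not a bound site, and the expression data do not bear on it.

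The libraries held 34874880 to 37298250 counts each, so the 7 genes rested on 113 counts (Il34 in OVX-AS-IV-High replicate 3) to 3173 counts (Csf1 in Sham replicate 2). Levels are given as CPM, counts divided by the TMM-scaled library size, and levels of different genes are compared as FPKM, which also divides by gene length. Markers of osteoblasts, osteocytes and osteoclasts were all present, with no listed marker at 0 in all libraries, and so were those of marrow: erythroid markers summed to 36378 to 60968 CPM and neutrophil markers to 10403 to 19259 CPM. Skeletal muscle markers varied the most, from 543 CPM in OVX-AS-IV-High replicate 3 to 9129 CPM in Sham replicate 1. All 7 measured B lineage markers were higher in OVX than in Sham (unadjusted p under 0.05), where 8.16% of all tested genes were. Their sums were 1107 to 1178 CPM against 650 to 854 CPM. In OVX-AS-IV-High (786 to 1133 CPM) 3 of 7 were higher than in Sham, where 9.17% of all tested genes were. Against OVX, 3 of 7 were lower in OVX-AS-IV-High, where 2.03% were. None of these markers passed edgeR's test after adjustment. In such mixed tissue, fewer cells of a type and less RNA per cell cannot be told apart.

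None of the 7 genes passed edgeR's test after adjustment in any comparison. Of the 7 genes, 2 had an unadjusted p under 0.05 in OVX vs. Sham, Traf6 higher and Csf1 lower, where 16.4% of all tested genes did. For OVX-AS-IV-High against OVX, 0 of 7 did, against 6.45%. In OVX-AS-IV-High vs. Sham, 4 of 7 did, Traf6 higher and Csf1, Il34 and Tnfrsf11a lower, against 17.6%. The study names a log2FC threshold of 1 in its results and of 0.58 in its methods, each with an unadjusted p under 0.05. At 1, called the study thresholds from here on, 0 of the 7 passed in any comparison, where 3.11%, 0.83% and 3.15% of all tested genes did. At 0.58, Il34 (-0.88) and Tnfrsf11a (-0.69) passed in OVX-AS-IV-High vs. Sham, where 6.92% of all tested genes did, and 0 of 7 passed in the other comparisons, where 6.96% (OVX vs. Sham) and 2.19% did. The adjusted p from edgeR was under 0.05 for 0 genes of any kind in the 3 comparisons (0% of the genes tested), whereas DESeq2 called 5.25%, 0.254% and 6.36% of the genes to which it gave an adjusted p, 1 of the 7 genes among them (Il34 in OVX-AS-IV-High vs. Sham).

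The libraries of the groups did not overlap for 0 of the 7 genes in OVX vs. Sham, against 23.3% of all tested genes (12.7% higher and 10.6% lower), and for 0 of 7 for OVX-AS-IV-High against OVX, against 12.7% (6.38% higher and 6.36% lower). Separation from Sham was found in OVX-AS-IV-High for 4 of 7, against 19.9%: Traf6 higher, where 9.61% of all tested genes were, and Csf1, Il34 and Tnfrsf11a lower, where 10.3% were. The median log2FC of the 7 genes was -0.24, 0.00 and -0.24 in the 3 comparisons, where that of all tested genes was -0.01, -0.02 and -0.01. Within the 3 same-numbered pairs of OVX and OVX-AS-IV-High libraries, a view chosen after the values were seen, Tnfrsf11a and Il34 were lower in OVX-AS-IV-High in every pair, as were 16.6% of all tested genes. None of the 7 was higher in every pair, where 14.4% of all tested genes were. The comparisons share libraries pairwise, and differences between them were not tested beyond the contrasts given.

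**Figure D1:**
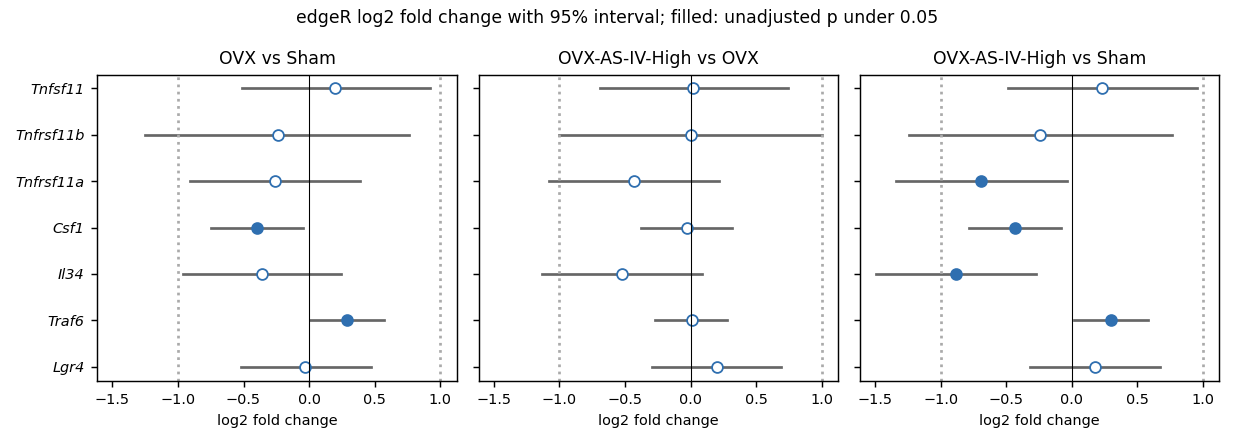
log2FC of the 7 genes (x axis) with 95% intervals from edgeR's quasi-likelihood fit in OVX vs. Sham, OVX-AS-IV-High vs. OVX and OVX-AS-IV-High vs. Sham; filled points have an unadjusted p under 0.05 and dotted lines mark an absolute log2FC of 1. Filled points number 2, 0 and 4 in the 3 panels, and the widest intervals are those of Tnfrsf11b.

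Per gene length, Csf1 and Tnfrsf11b were the most abundant of the 7, with means over 9 libraries of 14.9 ± 2.86 and 14.2 ± 5.84 FPKM (SD, n = 9). Their ranges overlapped, at 11.4 to 19.6 and 6.72 to 24.7 FPKM. Below them, Traf6 averaged 4.70 FPKM, Lgr4 4.51, Tnfrsf11a 3.11 and Tnfsf11 2.97, and each of these overlapped its neighbour in the order. Il34 was the lowest at 1.03 ± 0.331 FPKM, with a highest library of 1.43 FPKM, below the lowest library of Tnfsf11 at 1.92 FPKM. The decoy receptor and M-CSF thus led the ligand and receptor of the RANK pair.

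**Figure D2:**
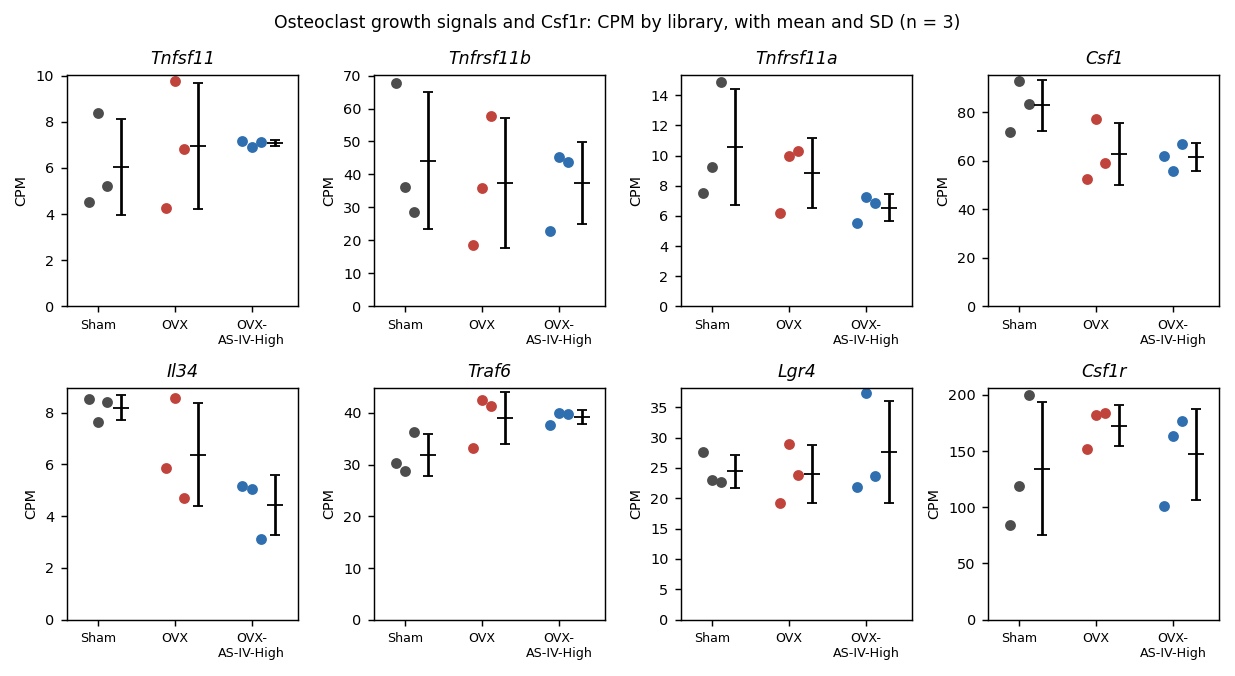
CPM (y axis, from 0) of the 7 genes and of Csf1r in each library, by group (x axis); points are libraries in the order 1 to 3, and the bar beside them is the mean with its SD (n = 3). For Il34 every Sham library (7.63 to 8.52 CPM) lies above every OVX-AS-IV-High library (3.11 to 5.15 CPM), while Tnfrsf11b overlaps among all groups.

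Tnfsf11, the ligand, was measured at 4.51, 8.39 and 5.21 CPM in the Sham libraries, at 4.28, 9.76 and 6.81 CPM in the OVX libraries and at 7.16, 6.93 and 7.12 CPM in the OVX-AS-IV-High libraries. The groups overlapped, and the OVX libraries alone spanned 2.28-fold. The log2FC was 0.20 (95% interval -0.51 to 0.92, adjusted p = 0.762, edgeR's quasi-likelihood test) for OVX vs. Sham and 0.02 (-0.69 to 0.74, adjusted p = 0.997) for OVX-AS-IV-High vs. OVX. For OVX-AS-IV-High vs. Sham it was 0.23 (-0.49 to 0.95, adjusted p = 0.737). None of these passed the test. The 3 OVX-AS-IV-High libraries were almost identical, with a coefficient of variation of 1.71% against 34.3% in Sham and 39.5% in OVX. Counting alone would give 6.22% at this depth, and 1.42% of the tested genes had a lower value in that group.

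Tnfrsf11b, the decoy receptor, was measured at 67.8, 36.3 and 28.5 CPM in the Sham libraries, at 18.5, 35.8 and 57.7 CPM in the OVX libraries and at 23.0, 45.4 and 43.7 CPM in the OVX-AS-IV-High libraries. It was the most variable of the 7 genes in each group, with coefficients of variation of 47.1% (Sham), 52.6% (OVX) and 33.3% (OVX-AS-IV-High), and its highest and lowest libraries differed 3.12-fold within OVX. The log2FC was -0.24 (-1.25 to 0.76, adjusted p = 0.798, edgeR) for OVX vs. Sham, 0.00 (-1.0 to 1.0, adjusted p = 0.999) for OVX-AS-IV-High vs. OVX and -0.24 (-1.24 to 0.76, adjusted p = 0.807) for OVX-AS-IV-High vs. Sham. None passed the test. The sign for OVX vs. Sham turned when Sham replicate 1 or OVX replicate 1 was left out (0.20 and 0.08).

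The ratio of Tnfsf11 to Tnfrsf11b counts, in which library size cancels, was 0.0667, 0.232 and 0.183 in the Sham libraries. It was 0.232, 0.273 and 0.118 in the OVX libraries, then 0.311, 0.153 and 0.163 in those of OVX-AS-IV-High. The spread within each group was 2.04- to 3.48-fold, and the groups overlapped. Exact 95% intervals from the counts, which cover counting error only, were narrow beside these differences: 0.0564 to 0.0779 in Sham replicate 1 and 0.243 to 0.306 in OVX replicate 2. Per gene length, OPG exceeded RANKL in all 9 libraries, by 2.6-fold in OVX-AS-IV-High replicate 1 to 12.2-fold in Sham replicate 1.

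On the log2 scale the ratio averaged -2.82 ± 0.95 for Sham, -2.35 ± 0.64 for OVX and -2.34 ± 0.57 for OVX-AS-IV-High (SD, 3 libraries per group). OVX exceeded Sham by 0.47 (standard error 0.664, two-sided exact permutation test, p = 0.5). OVX-AS-IV-High differed from OVX by 0.02 (standard error 0.494, exact permutation p = 1) and from Sham by 0.49 (standard error 0.641, exact permutation p = 0.6). With 3 libraries against 3 the smallest p this test allows is 0.1. The higher mean of OVX rested on Sham replicate 1, without which the difference was -0.07, and that library also had the highest muscle marker sum, 9129 CPM, whose part in the ratio was not tested.

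**Figure D3:**
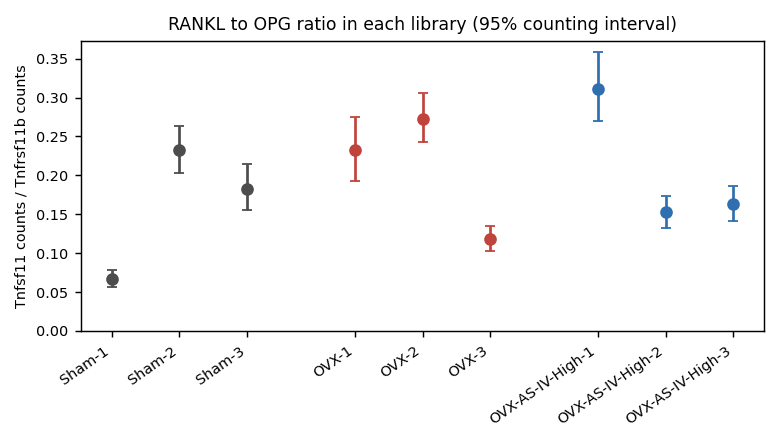
Ratio of Tnfsf11 to Tnfrsf11b counts (y axis, linear, from 0) in each of the 9 libraries (x axis), with 95% exact binomial intervals that cover counting error only. The groups overlap: Sham runs from 0.0667 to 0.232, OVX from 0.118 to 0.273 and OVX-AS-IV-High from 0.153 to 0.311.

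Tnfrsf11a, the receptor RANK, was measured at 7.50, 9.27 and 14.9 CPM in the Sham libraries, at 6.16, 10.0 and 10.3 CPM in the OVX libraries and at 5.53, 7.23 and 6.87 CPM in the OVX-AS-IV-High libraries. All 3 OVX-AS-IV-High libraries lay below all 3 Sham libraries, whereas OVX overlapped both groups. The log2FC was -0.26 (-0.91 to 0.39, adjusted p = 0.653, edgeR) for OVX vs. Sham and -0.43 (-1.08 to 0.22, adjusted p = 0.913) for OVX-AS-IV-High vs. OVX. For OVX-AS-IV-High vs. Sham it was -0.69 (-1.34 to -0.04, adjusted p = 0.265), a level 1.61-fold lower that did not pass after adjustment. Without Sham replicate 3 this last value was -0.36. The unadjusted p was over 0.05 without that library, without any of the 3 OVX-AS-IV-High libraries and without OVX replicate 2, so it stayed under 0.05 in 4 of 9 fits with a library left out and in 10 of 18 alternative fits. Within same-numbered pairs, OVX-AS-IV-High stood below OVX by log2 differences of -0.15, -0.47 and -0.58.

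RANK is carried by cells of the osteoclast lineage, so its level was also set against 7 osteoclast markers (Acp5, Ctsk, Mmp9, Atp6v0d2, Dcstamp, Ocstamp and Calcr), a measure chosen after the values were seen and given as a description with no test. The marker sum was 967, 1420 and 2178 CPM in the Sham libraries, 1386, 2403 and 2641 CPM in the OVX libraries and 1374, 2014 and 2571 CPM in the OVX-AS-IV-High libraries, and the groups overlapped. Per 1000 CPM of these markers, Tnfrsf11a stood at 7.76, 6.53 and 6.86 CPM in the Sham libraries, at 4.44, 4.16 and 3.89 CPM in the OVX libraries and at 4.03, 3.59 and 2.67 CPM in the OVX-AS-IV-High libraries. Every library of both ovariectomised groups lay below every Sham library. The mean log2 difference was -0.76 (standard error 0.09) for OVX vs. Sham, -0.30 (0.18) for OVX-AS-IV-High vs. OVX and -1.06 (0.19) for OVX-AS-IV-High vs. Sham.

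The same separation downward from Sham, after division by the marker sum, was found for 4.76% of the 16874 genes tested in OVX and for 4.92% in OVX-AS-IV-High, and separation of OVX-AS-IV-High below OVX, for 0.522%. The libraries of Tnfrsf11a overlapped in that last comparison, while its ratio was lower with AS-IV in each of the 3 same-numbered pairs. With single markers, OVX lay below Sham for 5 of the 7: Acp5, Ctsk, Mmp9, Atp6v0d2 and Dcstamp, for which 1.81%, 5.49%, 14.8%, 5.91% and 5.38% of all tested genes did likewise. The exceptions were Ocstamp (-0.59) and Calcr (0.23, opposite in sign). OVX-AS-IV-High lay below OVX with 2 of the 7 markers, Acp5 (-0.41) and Mmp9 (-0.44), where 0.682% and 2.87% of all tested genes did. It lay below Sham with 5 of the 7, again all but Ocstamp (-1.06) and Calcr (0.38). In the order given above, 2.25%, 2.24%, 39.3%, 2.55% and 4.26% of all tested genes did likewise. Calcr was the least abundant of the markers at 0.367 FPKM. With Mmp9 alone, which neutrophils also express, the difference of OVX from Sham was -0.53, and with the sum without Mmp9 it was -0.87. Against Csf1r in place of the markers it was -0.68, without overlap, as for 6.68% of all tested genes. Of the markers themselves, 0 of 7 had an unadjusted p under 0.05 in OVX vs. Sham, where 16.4% of all tested genes did, with a median log2FC of 0.36.

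**Figure D4:**
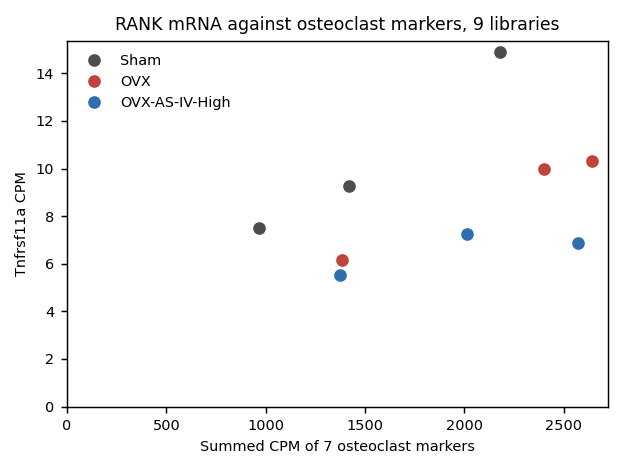
Tnfrsf11a CPM (y axis) against the summed CPM of 7 osteoclast markers (x axis), both from 0, with 1 point per library coloured by group. At like marker sums the Sham points lie above the OVX and OVX-AS-IV-High points; Sham holds 6.53 to 7.76 CPM of Tnfrsf11a per 1000 CPM of markers, OVX 3.89 to 4.44 and OVX-AS-IV-High 2.67 to 4.03.

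Csf1, the main growth factor of osteoclast precursors, was measured at 72.0, 93.1 and 83.6 CPM in the Sham libraries, at 52.4, 77.1 and 59.3 CPM in the OVX libraries and at 62.1, 55.8 and 67.0 CPM in the OVX-AS-IV-High libraries. OVX replicate 2 reached into the Sham range, and the other OVX libraries and all OVX-AS-IV-High libraries lay below it. Csf1 was 1.32-fold lower in OVX than in Sham (log2FC -0.40, 95% interval -0.75 to -0.05, adjusted p = 0.257, edgeR) and 1.35-fold lower in OVX-AS-IV-High than in Sham (-0.43, -0.78 to -0.08, adjusted p = 0.211). OVX-AS-IV-High differed from OVX by -0.03 (-0.38 to 0.32, adjusted p = 0.995). Neither difference from Sham passed after adjustment, and both comparisons use the same Sham libraries. Of the 18 alternative fits, the unadjusted p stayed under 0.05 in 14 for OVX and in 16 for OVX-AS-IV-High. With each library left out, it stayed under 0.05 in 5 of 9 fits for OVX and in 7 of 9 for OVX-AS-IV-High. For OVX vs. Sham it was over 0.05 without Sham replicate 2 or 3 or OVX replicate 1 or 3. The fits without an OVX-AS-IV-High library, a group not in that comparison, left the log2FC at -0.40.

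Il34, the second ligand of CSF1R, was measured at 8.52, 7.63 and 8.42 CPM in the Sham libraries, at 5.86, 8.57 and 4.69 CPM in the OVX libraries and at 5.15, 5.06 and 3.11 CPM in the OVX-AS-IV-High libraries. The Sham libraries were close to each other, with a coefficient of variation of 5.98%, and all OVX-AS-IV-High libraries lay below them, while OVX overlapped both. Il34 was 1.84-fold lower in OVX-AS-IV-High than in Sham (log2FC -0.88, 95% interval -1.49 to -0.27, adjusted p = 0.162, edgeR), the largest difference of any of the 7 genes in the 3 comparisons. The log2FC was -0.36 (-0.96 to 0.24, adjusted p = 0.502) for OVX vs. Sham and -0.52 (-1.13 to 0.09, adjusted p = 0.835) for OVX-AS-IV-High vs. OVX. Both moved with single libraries. The first was -0.63 without OVX replicate 2, with an unadjusted p under 0.05, and -0.18 without OVX replicate 3. The second was -0.25 without OVX replicate 2, -0.32 without OVX-AS-IV-High replicate 3 and -0.70, with an unadjusted p under 0.05, without OVX replicate 3. Within same-numbered pairs it was -0.19, -0.76 and -0.60.

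For Il34 in OVX-AS-IV-High vs. Sham, the unadjusted p was under 0.05 in all 18 alternative fits. Its adjusted p ranged from 0.0405 with DESeq2 to 0.373 with Sham replicate 2 left out. By DESeq2 it alone of the 7 genes passed after adjustment, in this comparison. The FPKM ratio of Csf1 to Il34 overlapped among the groups: 11.2, 16.2 and 13.2 in the Sham libraries, 11.9, 12.0 and 16.8 in the OVX libraries, then 16.0, 14.7 and 28.7 in those of OVX-AS-IV-High.

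Csf1r, which encodes the receptor of both ligands and was not among the 7 genes, was measured at 84.4, 119 and 200 CPM in the Sham libraries, at 152, 182 and 184 CPM in the OVX libraries and at 101, 163 and 177 CPM in the OVX-AS-IV-High libraries. The groups overlapped, with a log2FC of 0.36 (adjusted p = 0.554, edgeR) for OVX vs. Sham, -0.23 (adjusted p = 0.952) for OVX-AS-IV-High vs. OVX and 0.12 (adjusted p = 0.859) for OVX-AS-IV-High vs. Sham. None of these passed the test. Without Sham replicate 3 the first was 0.76, with an unadjusted p under 0.05, and without Sham replicate 1 it was 0.11, while the difference of OVX-AS-IV-High from Sham ranged from -0.12 to 0.53 with each library left out.

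Traf6, the adaptor of RANK that is also used by receptors of the interleukin-1 and Toll-like families, was measured at 30.4, 28.8 and 36.4 CPM in the Sham libraries, at 33.2, 42.5 and 41.3 CPM in the OVX libraries and at 37.7, 40.0 and 39.9 CPM in the OVX-AS-IV-High libraries. All OVX-AS-IV-High libraries exceeded all Sham libraries, and OVX replicate 1 fell within the Sham range. Traf6 was 1.22-fold higher in OVX (log2FC 0.29, 95% interval 0.01 to 0.57, adjusted p = 0.283, edgeR) and 1.23-fold higher in OVX-AS-IV-High (0.30, 0.02 to 0.58, adjusted p = 0.256) than in Sham. The difference between OVX-AS-IV-High and OVX was 0.01 (-0.27 to 0.28, adjusted p = 0.997), the narrowest interval of the 7 genes in that comparison. Neither difference from Sham passed after adjustment, and the unadjusted p stayed under 0.05 in 9 and 11 of 18 alternative fits. With each library left out, it stayed under 0.05 in 3 of 9 and 5 of 9 fits. For OVX vs. Sham it was over 0.05 without Sham replicate 1 or 2, OVX replicate 2 or 3 or OVX-AS-IV-High replicate 2 or 3.

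Lgr4, the R-spondin receptor that can bind RANKL, was measured at 27.6, 23.1 and 22.7 CPM in the Sham libraries, at 19.3, 28.9 and 23.8 CPM in the OVX libraries and at 21.9, 37.3 and 23.6 CPM in the OVX-AS-IV-High libraries. OVX-AS-IV-High replicate 2 stood above all other libraries, and the groups overlapped. The log2FC was -0.03 (adjusted p = 0.962, edgeR) for OVX vs. Sham, 0.20 (adjusted p = 0.947) for OVX-AS-IV-High vs. OVX and 0.18 (adjusted p = 0.705) for OVX-AS-IV-High vs. Sham, and without that library the last was -0.10.

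Other genes of the pathway were taken from 7 lists with 113 genes, of which 105 were tested. Genes of these lists are counted as higher or lower at an unadjusted p under 0.05, and none passed edgeR's test after adjustment. In OVX vs. Sham, 16 were higher and 6 lower with an unadjusted p under 0.05, where 8.16% of all tested genes were higher and 8.28% lower, and the median log2FC was 0.10. For OVX-AS-IV-High against OVX, 4 were higher and 2 lower, where 4.42% of all tested genes were higher and 2.03% lower, with a median of -0.01. In OVX-AS-IV-High vs. Sham, 15 were higher and 3 lower, where 9.17% of all tested genes were higher and 8.48% lower, with a median of 0.09. By the study thresholds, 2 were higher and 2 lower in OVX vs. Sham, where 1.08% and 2.03% of all tested genes were. By the same thresholds 1 was higher and 0 lower for OVX-AS-IV-High against OVX (0.456% and 0.373% of all tested genes), and in OVX-AS-IV-High vs. Sham 2 were higher and 0 lower (1.11% and 2.03%).

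Among the RANK signal transducers, 4 of 23 genes were higher and 2 lower in OVX vs. Sham, where 8.16% of all tested genes were higher and 8.28% lower. Nfkb1, which encodes an NF-κB subunit, was higher by a log2FC of 0.59 (standard error 0.12, adjusted p = 0.138, edgeR), and Ikbkg, Nfkb2 and Relb stood at 0.40, 0.30 and 0.37. Fos and Jun, the AP-1 subunits, were lower at -0.75 and -0.59. For OVX-AS-IV-High against OVX, Fos was the single gene of this list with an unadjusted p under 0.05, at 0.74 (adjusted p = 0.724), against 6.45% of all tested genes. These 6 genes were named after their values were seen, whereas Mapk14 (-0.13 in OVX vs. Sham, adjusted p = 0.566) and Akt1 (0.17, adjusted p = 0.426), both kinases, were named for their high level.

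Of the M-CSF receptor and its signal proteins, 3 of 15 genes were higher than in Sham in OVX, as were 4 in OVX-AS-IV-High, with 0 lower in either. Of all tested genes, 8.16% and 9.17% were higher in these comparisons and 8.28% and 8.48% lower. Ptpn6, a phosphatase that restrains CSF1R signalling, stood at 0.32 (adjusted p = 0.186, edgeR) in OVX vs. Sham, and Rac2, a small GTPase of blood cells, at 0.14 (adjusted p = 0.453). Of 12 tested genes of ITAM costimulation, the second signal that osteoclast precursors need beside RANK, 4 were higher than in Sham in OVX, as was 1 in OVX-AS-IV-High. Of all tested genes, 8.16% and 9.17% were. The gene higher in both was the adaptor Tyrobp (DAP12), at 0.26 in both comparisons (adjusted p = 0.279 and adjusted p = 0.266). With each library left out, its unadjusted p stayed under 0.05 in 4 of 9 fits in each comparison. These included fits that drop a library outside the comparison. They were those without OVX-AS-IV-High replicate 1 or 3 in OVX vs. Sham, and without OVX replicate 1, 2 or 3 in OVX-AS-IV-High vs. Sham. Without OVX replicate 3 the OVX value was 0.14. The adaptor Fcer1g stood at 0.05 (adjusted p = 0.844) in OVX. The higher genes of this list also included Btk (0.35) and Blnk (0.49), named after their values were seen and both also used in B cells, whose 7 measured markers were higher in OVX; the part of B cells in these values was not tested.

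Around LGR4, Rspo3, an R-spondin ligand of that receptor, was the gene of its list past the study thresholds in OVX vs. Sham, where 3.11% of all tested genes were. Mmp14, a protease that sheds RANKL, was the list's single higher gene there at 0.72 (adjusted p = 0.248, edgeR), where 8.16% of all tested genes were higher. Mmp14 was named after its values were seen. Rspo3 held 72, 95 and 80 counts in Sham bone, 34, 56 and 36 in the OVX libraries, then 86, 60 and 92 in those of OVX-AS-IV-High. For Rspo3 the OVX libraries thus lay below those of both other groups. The log2FC was -1.05 (standard error 0.31, adjusted p = 0.174, edgeR) for OVX vs. Sham and 0.95 (0.31, adjusted p = 0.652) for OVX-AS-IV-High vs. OVX. It was -0.11 (adjusted p = 0.882) for OVX-AS-IV-High vs. Sham. With any library left out, the unadjusted p stayed under 0.05 in both comparisons with OVX, which share the OVX libraries, but the log2FC in OVX vs. Sham no longer passed 1 without Sham replicate 2 (-0.90), OVX replicate 1 (-0.93) or OVX replicate 3 (-0.96). Rspo2, a related ligand, was at 15, 14 and 25 counts in Sham bone and at 21, 80 and 58 in OVX-AS-IV-High (log2FC 1.5, adjusted p = 0.210). Its unadjusted p stayed under 0.05 in 5 of 9 fits with a library left out. Among these were the fits without OVX replicate 1, 2 or 3, which are not in this comparison.

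Among the hormone and cytokine signals that set RANKL and OPG, Ptgs2, the inducible cyclooxygenase that makes prostaglandin precursors, held 314, 223 and 313 counts in Sham bone, 117, 91 and 139 in the OVX libraries, then 507, 189 and 347 in those of OVX-AS-IV-High. Every OVX library lay below every library of the other groups. Of all tested genes, 10.6% were lower without overlap in OVX vs. Sham. In OVX-AS-IV-High vs. OVX, 6.38% were higher without overlap. The share with both was not counted, and both comparisons use the same OVX libraries. The log2FC was -1.36 (standard error 0.35, adjusted p = 0.153, edgeR) for OVX vs. Sham and 1.61 (0.35, adjusted p = 0.652) for OVX-AS-IV-High vs. OVX, and leaving out any library kept the unadjusted p under 0.05 in both. Pgr, the progesterone receptor, was at 14, 13 and 16 counts in Sham bone and 41, 28 and 34 in the OVX libraries (log2FC 1.18, adjusted p = 0.281). Its unadjusted p stayed under 0.05 in 3 of 9 fits with a library left out. These were the fits without OVX replicate 2 and without OVX-AS-IV-High replicate 1 or 3, and the latter libraries are not in this comparison. Il6st, the shared gp130 receptor subunit of the interleukin-6 family, stood at -0.47 in OVX (adjusted p = 0.151) and -0.57 in OVX-AS-IV-High (adjusted p = 0.1) vs. Sham and was named after its values were seen.

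Of 12 tested negative regulators of osteoclast formation, 3 were higher and 0 lower in OVX than in Sham: Irf8 (0.45), Tnfaip3 (0.60) and Ctla4. Of all tested genes, 8.16% were higher and 8.28% lower there. The transcription factor Irf8 and the NF-κB inhibitor Tnfaip3 were named after their values were seen. Irf8 and Tnfaip3 were lower with AS-IV than without it among ovariectomised rats, at -0.30 (adjusted p = 0.723, edgeR) and -0.56 (adjusted p = 0.706), and Cyld, a deubiquitinase that restrains NF-κB and was also named after its values were seen, was higher at 0.40 (adjusted p = 0.772). Ctla4, an inhibitory receptor of T cells that can restrain precursors, had few counts, 6, 5 and 7 in the Sham libraries and 8, 35 and 13 in the OVX libraries (log2FC 1.54, adjusted p = 0.246). Its unadjusted p stayed under 0.05 in 6 of 9 fits with a library left out, those without an OVX-AS-IV-High library among them. It was over 0.05 without Sham replicate 1 or 2 or OVX replicate 2, and without OVX replicate 2 the log2FC was 0.74. Ctla4 was at 28, 19 and 19 counts in OVX-AS-IV-High (1.81 vs. Sham, adjusted p = 0.172). T cell markers summed to 93.4 to 180 CPM in Sham, to 110, 188 and 148 CPM in the OVX libraries and to 106 to 161 CPM in OVX-AS-IV-High. The part of T cells in Ctla4 was not tested. Of the 12 osteoclast target genes of RANK, 0 had an unadjusted p under 0.05 in OVX vs. Sham, where 16.4% of all tested genes did, with a median log2FC of 0.29. Ctsk, the main collagen-cleaving protease of osteoclasts, stood at 0.74 (adjusted p = 0.452) and Car2, the carbonic anhydrase that supplies acid, at -0.35 (adjusted p = 0.419). Car2 is also a red cell gene, and erythroid markers ranged from 36378 to 60968 CPM.

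**Figure D5:**
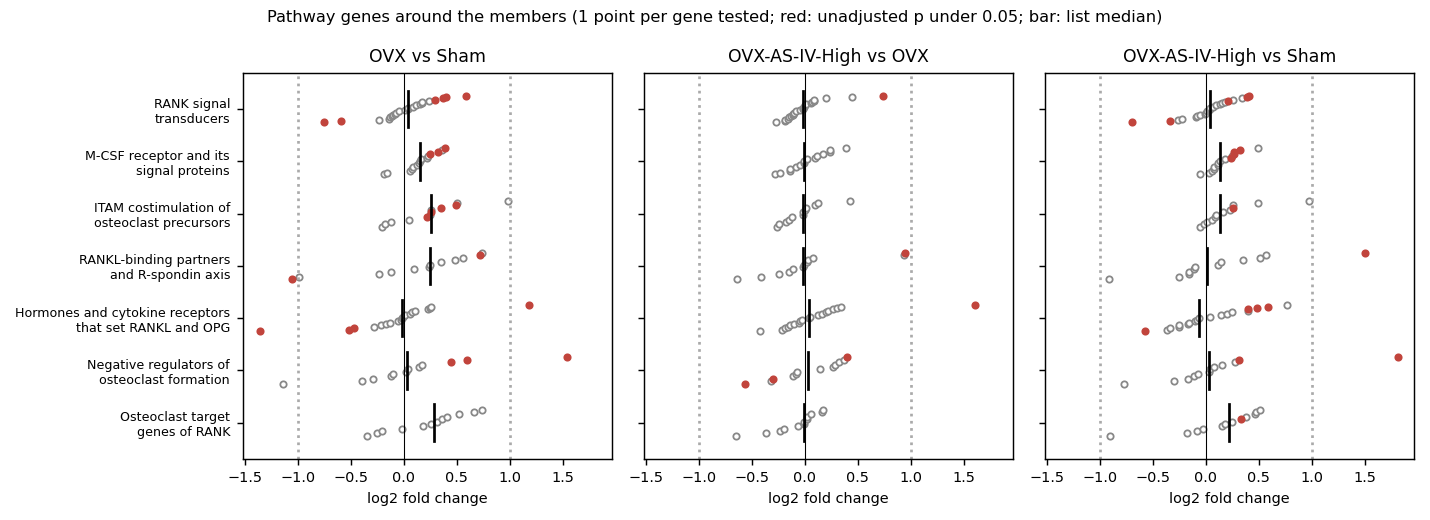
log2FC (x axis) of each tested gene in the 7 pathway lists (rows) for OVX vs. Sham, OVX-AS-IV-High vs. OVX and OVX-AS-IV-High vs. Sham; red points have an unadjusted p under 0.05, the black bar is the median of the list and dotted lines mark an absolute log2FC of 1. Red points number 22 in OVX vs. Sham, 6 for OVX-AS-IV-High against OVX and 18 in OVX-AS-IV-High vs. Sham, and most lie within the dotted lines.

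Across the 9 libraries, the genes whose log2 CPM most resembled that of each of the 7 were sought among the 14479 tested genes with a mean of at least 1 CPM, as a description over libraries that share tissue and preparation. For Tnfsf11 they were Sf3b1 (Pearson r 0.914), Xdh and Apobec1, and for Tnfrsf11b they were Ccdc162 (0.901), Il17d and Dlg3. For Tnfrsf11a they were Ndrg4 (0.969), Slc6a8 and Glul, for Csf1 Drc1 (0.963), Jund and Atg14, and for Il34 Jtb (0.960), Rbpms and Vat1l. Traf6 was nearest to Lpxn (0.989), Gys2 and Nkapd1, and Lgr4 to Pdp1 (0.941), Nectin3 and Robo1. None of the 7 genes was among the 3 nearest to another of the 7. Among 6 pairs, each a ligand with a receptor or the ligands of 1 receptor, the highest correlation was that of the ligands Csf1 and Il34 (Pearson r = 0.576, two-sided exact permutation p = 0.106, adjusted p = 0.633, and Spearman rho = 0.567, exact permutation p = 0.121, adjusted p = 0.723, n = 9). It was 0.660 without the 2 libraries farthest from the median of Csf1 and 0.172 within groups. Tnfsf11 and Tnfrsf11b had r = 0.117 (exact permutation p = 0.759, adjusted p = 0.853) and rho = -0.0667 (exact permutation p = 0.880, adjusted p = 0.948). With the receptor gene Csf1r, Csf1 had r = -0.0714 (exact permutation p = 0.853) and Il34 r = -0.237 (exact permutation p = 0.534).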

How the data were processed

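Bone RNA was sequenced in 9 libraries, and by the labels each of the 3 groups has 3 of them. The libraries were poly(A)-selected and strand-specific, and the study describes 3 independent biological replicates per group. After quality control, the authors mapped reads by Tophat and Bowtie2 and estimated gene abundance by eXpress. The deposited counts are whole numbers and were not normalized. The deposited FPKM values are those counts scaled by gene length and library size by the authors. The submitters' processing notes name the build mRatBN7.2. The strand setting of the counting is not given in the sources used here.

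The quasi-likelihood test in edgeR 4.0.16 (R 4.3.3) was applied to these counts after TMM scaling and a filter set at 10 counts, and 1 fit took in every library. This left 16874 genes, over which p-values were adjusted by Benjamini-Hochberg, and the common biological coefficient of variation was 0.2556. The log2 ratio of Tnfsf11 to Tnfrsf11b used a pseudocount of 0.5 counts, and ratio intervals were exact binomial (Clopper-Pearson) at 95%. In simulated counts for OVX vs. Sham over 16669 genes, 149 of 197 genes changed 3-fold and 8 unchanged genes passed at an adjusted p under 0.05. Alternatives were DESeq2 1.42.0, RLE factors, library size alone, no filter, limma 3.58.1 on log2(FPKM + 1) and log2(FPKM + 0.1), the groups compared alone, a replicate block and each library left out. The fits with a library left out include those that drop a library of the group not compared. Such a library enters the comparison only through the shared scaling and estimate of spread. Ratios and permutation tests were computed in Python 3.11.15 with scipy 1.17.1.

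Deviations from the group mean correlated positively between all same-numbered libraries of OVX and OVX-AS-IV-High, though the values were low (0.31, 0.158 and 0.13). The labels state no pairing of rats, and the cause of these correlations was not tested. The fit and the permutation tests reported used no pairing, and a block on the number was an alternative in all 3 comparisons. Between Sham and the other groups such correlations were mixed in sign, with OVX (0.2, -0.161 and 0.253) and with OVX-AS-IV-High (0.314, -0.158 and 0.435). The 7 genes, the pathway lists and the marker lists were chosen with earlier results of these data known. The pathway genes named were those past the study thresholds in any comparison, or else the 2 of a list with the highest mean FPKM, and genes named outside this rule are identified as such. All 7 gene identifiers matched the RefSeq table of GRCr8, which served for names and the promoter window. In the pathway lists, 8 genes were not tested.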

Additional observations from a re-analysis of the deposited data

How the results depend on the processing

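Over 18 alternatives for each of the 7 genes (126 refits per comparison), direction and side of the 0.05 threshold were kept in 105 refits for OVX vs. Sham, 108 for OVX-AS-IV-High vs. OVX and 106 for OVX-AS-IV-High vs. Sham. The sign turned in 7, 17 and 3, in genes with no call; the cause was not tested. Of the 7 genes, 2 had an unadjusted p under 0.05 in OVX vs. Sham. This became 1 with limma on log2(FPKM + 1), with limma on log2(FPKM + 0.1) and with only the groups compared, and 0 to 2 with each library left out. In OVX-AS-IV-High vs. Sham the 4 became 2 with each of the 3 limma settings and 1 to 4 with each library left out, and for OVX-AS-IV-High against OVX the 0 became 0 to 1. By the study thresholds, 0 became 2 with an absolute log2FC over 0.58, the threshold in the study's methods, in OVX-AS-IV-High vs. Sham and 0 to 1 with each library left out (Il34 without OVX-AS-IV-High replicate 1). The replicate block left these counts at 2, 0 and 4 and changed no call.

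The log2 ratio of Tnfsf11 to Tnfrsf11b ranged from -0.07 to 0.83 for OVX vs. Sham, from -0.34 to 0.26 for OVX-AS-IV-High vs. OVX and from -0.06 to 0.84 for OVX-AS-IV-High vs. Sham with each library left out. With the replicate block it was 0.47 (exact sign-flip permutation p = 0.75), 0.02 (p = 1) and 0.49 (p = 1). With each library left out, log2FC ranges that crossed 0 in OVX vs. Sham were -0.12 to 0.53 for Tnfsf11, -0.70 to 0.20 for Tnfrsf11b, -0.46 to 0.07 for Tnfrsf11a and -0.18 to 0.11 for Lgr4. For OVX-AS-IV-High against OVX they were -0.23 to 0.35 for Tnfsf11, -0.32 to 0.46 for Tnfrsf11b, -0.15 to 0.14 for Csf1, -0.09 to 0.07 for Traf6 and -0.08 to 0.36 for Lgr4. In OVX-AS-IV-High vs. Sham they were -0.48 to 0.21 for Tnfrsf11b and -0.10 to 0.32 for Lgr4. Scaling by library size alone gave 0.00 for Lgr4 in OVX vs. Sham and -0.01, -0.03 and -0.03 for Tnfsf11, Tnfrsf11b and Traf6 for OVX-AS-IV-High against OVX, and limma gave -0.02 for Traf6 there in its 3 settings. Dividing Tnfrsf11a by Calcr alone, an alternative chosen after seeing the data, gave 0.23, 0.15 and 0.38 in OVX vs. Sham, OVX-AS-IV-High vs. OVX and OVX-AS-IV-High vs. Sham. The coefficient of variation that counting alone would give exceeded the observed one for Tnfsf11 in OVX-AS-IV-High (6.22% against 1.71%) and was close to it for Il34 in Sham (5.88% against 5.98%).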

Other observations

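The FPKM ratio of Tnfsf11 to Tnfrsf11a, ligand to receptor, was 0.742, 1.12 and 0.431 in the Sham libraries, 0.858, 1.21 and 0.818 in the OVX libraries, then 1.60, 1.18 and 1.28 in those of OVX-AS-IV-High. This ratio was chosen after the values were seen and was not tested. Every OVX-AS-IV-High library was above every Sham library, by a thin margin (1.18 against 1.12), and OVX overlapped both. Tnfrsf11a by itself separated the same groups, so the ratio is not a further finding. The share of other gene ratios that separate likewise was not counted. The FPKM ratio of Tnfsf11 to Lgr4 was 0.408, 0.907 and 0.574 in the Sham libraries, 0.554, 0.843 and 0.714 in the OVX libraries, then 0.817, 0.463 and 0.753 in those of OVX-AS-IV-High, with overlap among the groups.

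Of 7 markers of marrow stromal cells and adipocytes, cells that can make RANKL, M-CSF and IL-34, none passed edgeR's test after adjustment. Their median log2FC in OVX vs. Sham was 0.58 in edgeR's fit. With an unadjusted p under 0.05, 5 of the 7 were higher there, where 8.16% of all tested genes were. These were the 5 adipocyte genes Adipoq (1.35), Plin1 (1.12), Lpl (0.58), Fabp4 (0.58) and Cidec (1.36), while the stromal markers Cxcl12 and Lepr stood at 0.12 and -0.28 and did not pass. In OVX-AS-IV-High vs. Sham 5 of 7 were higher, Lepr (0.39) among them and Fabp4 not, where 9.17% of all tested genes were. The median there was 0.77. The sums of all 7 were 1687 to 1998 CPM in Sham, 1932 to 2298 CPM in OVX and 1733 to 2642 CPM in OVX-AS-IV-High. Osteocyte markers summed to 411 to 456 CPM in Sham, 231 to 683 CPM in OVX and 274 to 445 CPM in OVX-AS-IV-High. Osteoblast markers summed to 7506 to 18617 CPM in Sham, 14214 to 23154 CPM in OVX and 7540 to 19680 CPM in OVX-AS-IV-High. Of the 9 osteoblast markers, 1 was higher in OVX vs. Sham with an unadjusted p under 0.05, Bglap (1.21), where 8.16% of all tested genes were. Bglap did not pass edgeR's test after adjustment. The part of these cell types in the values of the 7 genes was not tested.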
